A study of Homo sapiens with 4 samples.

Results

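A set of 10 genes of interleukin 6 (IL6) signalling and the acute phase response was examined in Huh7 cells after knockdown of NUP210, a membrane glycoprotein of the nuclear pore. They were chosen by symbol: IL6R, IL6ST, STAT3, SOCS3, ORM1, ORM2, SAA1, SAA4, CRP and LBP. Of these 10, 9 matched a row among the 20226 genes of the deposited tables, and CRP was not analysed here. The groups were Huh7 cells carrying a hairpin that targets NUP210 (shNUP210, 2 libraries) and Huh7 cells with a control hairpin (shCon, 2 libraries), whose genotype the labels give as wild type. The Huh7 line was established from a human liver cancer. All 4 libraries are labelled untreated, so no cytokine was recorded as added to either group. The labels do not give the hairpin's sequence or whether the cells were a clone or a pool. They also do not say whether libraries of a group were grown separately. The p-values therefore reflect no more than library-to-library spread, which may be technical. The test takes part of each gene's spread from other genes of like level.

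IL6 is a cytokine that binds the receptor IL6R. The complex pairs with the shared signalling chain gp130, encoded by IL6ST, whose associated JAK kinases phosphorylate the transcription factor STAT3. In hepatocytes STAT3, together with C/EBP factors, raises transcription of positive acute phase genes, whose products are secreted into plasma, while genes such as albumin and transthyretin are lowered and are called negative acute phase genes. SOCS3 is induced by STAT3 and binds gp130 and JAKs to end the signal. ORM1 and ORM2 encode the plasma carriers alpha-1-acid glycoproteins 1 and 2, SAA1 and SAA4 encode serum amyloid A apolipoproteins, CRP encodes the pentraxin C-reactive protein, and LBP encodes the plasma protein that carries bacterial lipopolysaccharide to CD14.

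ORM1 and ORM2 are neighbouring genes on chromosome 9 (GRCh38, plus strand), ORM1 at 114323056 to 114326475 and ORM2 at 114329869 to 114333252, and both are protein-coding. Their coding sequences are shown because the results turn on this pair and the sequences are so alike that reads can be hard to assign. Over 603 coding bases each, 572 were identical (94.9%) and 31 differed, and the longest identical run was 206 bases. Of 554 windows of 50 bases in the ORM1 coding sequence, 200 (36.1%) occurred unchanged in ORM2. The stretch with most differences, coding bases 284 to 403, holds 21 of the 31. With the intron that it crosses in each gene, it runs from 114324044 to 114324864 in ORM1 and from 114330818 to 114331641 in ORM2. It is printed 5′ to 3′ from the GENCODE release 29 transcripts, with capitals at the bases that differ between the genes.
ORM1: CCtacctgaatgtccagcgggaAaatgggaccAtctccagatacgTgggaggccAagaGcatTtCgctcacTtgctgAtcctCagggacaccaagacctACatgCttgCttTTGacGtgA
ORM2: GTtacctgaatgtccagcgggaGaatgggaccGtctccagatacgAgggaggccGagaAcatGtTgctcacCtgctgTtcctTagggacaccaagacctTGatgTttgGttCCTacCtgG

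RefSeq promoter windows of 300 bases were available for 7 of the 10 genes. Those of ORM1, the gene whose change passed the test, and SAA4, whose difference did not pass, are shown. Both were read from RefSeq on GRCh38.p14, ORM1 at chr9:114322848-114323147 on the plus strand and SAA4 at chr11:18236753-18237052 on the minus strand, and are printed 5′ to 3′. Capitals mark matches, on either strand, to a STAT motif (TTCNNNGAA), a C/EBP motif (TTGCNNAA), an HNF1 half-site (GTTAAT) or the IL6 response element core CTGGGAA.
ORM1 promoter: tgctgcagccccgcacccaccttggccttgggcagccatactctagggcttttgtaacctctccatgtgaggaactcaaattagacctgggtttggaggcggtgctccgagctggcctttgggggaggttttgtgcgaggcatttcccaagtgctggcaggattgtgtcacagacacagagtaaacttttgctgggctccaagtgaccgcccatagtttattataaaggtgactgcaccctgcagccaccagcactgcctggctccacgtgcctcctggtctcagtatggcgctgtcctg
SAA4 promoter: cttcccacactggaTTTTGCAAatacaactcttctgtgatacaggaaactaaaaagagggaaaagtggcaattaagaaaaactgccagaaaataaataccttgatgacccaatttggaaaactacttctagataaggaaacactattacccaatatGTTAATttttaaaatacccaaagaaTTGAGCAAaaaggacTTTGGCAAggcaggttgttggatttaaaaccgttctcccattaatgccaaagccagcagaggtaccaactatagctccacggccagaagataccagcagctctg
SAA4 held 3 C/EBP matches, starting 236, 69 and 54 bases before the start site, and 1 HNF1 half-site 94 bases before it. The letters searched for do not occur in the ORM1 window. No window of the 7 genes held the STAT motif, which was in 7.66% of all 35116 RefSeq promoter windows. The C/EBP letters were in 10.5% of all windows, GTTAAT in 6.88% and CTGGGAA in 10.8%. Among these genes CTGGGAA occurred once, in a SOCS3 window 185 bases before that start. C/EBP and HNF1 matches among the 7 genes were found in SAA4 only. A match is a description of letters and not a bound site.

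The values are TPM, a transcript abundance normalised for transcript length and library total. Genes with at least 5 TPM in 2 libraries were compared by limma on log2(TPM + 1), and a gene passed at an adjusted p under 0.05. Read depth is unknown, since TPM do not keep it. From the low values, 1 fragment on a 1 kb transcript was worth about 0.62 and 0.68 TPM in the shNUP210 libraries and 0.53 and 0.54 TPM in the shCon libraries. The targeted gene NUP210 measured 10.10 and 9.85 TPM in shNUP210 cells, against 32.82 and 27.28 TPM in shCon cells (limma adjusted p = 0.0432, and 0.162 to 0.167 with any 1 library left out). Across 10140 tested genes, 290 passed, 181 higher and 109 lower in shNUP210 cells. That split depends on scaling. The tested genes had a median log2 fold change of 0.23 in deposited TPM. Trimmed-mean scaling brought that median to 0.0068 and gave 78 higher and 250 lower. Hepatocyte markers (ALB, AFP, APOA1, APOA2, APOB, TTR, TF and HNF4A) were present in every library. Their summed level was 29403 and 29989 TPM in shNUP210 cells, against 42252 and 43947 TPM in shCon cells, with 3 of 8 passing as lower (APOA1, APOA2 and TF). Most of the difference in the sum was APOA2, at 17126 ± 316 TPM in shNUP210 cells and 27183 ± 1500 TPM in shCon cells (SD, n = 2 each). The other 5 did not pass, and their means in shNUP210 cells were 1.01 (ALB), 1.08 (AFP), 1.02 (APOB), 1.48 (TTR) and 1.24 (HNF4A) times those in shCon cells. For the 3 lower markers, fewer cells expressing them and less of their RNA per cell cannot be told apart in bulk samples.

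Among the pathway genes, ORM1 fell after knockdown and no other passed the test. ORM2 lay lower by a like factor, STAT3 was at 1.87 times its shCon mean, and both missed the threshold. Of the 6 genes that reached 5 TPM in 2 libraries (IL6R, IL6ST, STAT3, ORM1, ORM2 and SAA4), 1 passed, against 2.86% of all tested genes. In 3 of the 6 the groups did not overlap, which in either direction is no more than the 57.3% of all tested genes. By direction, 1 of the 6 was higher (STAT3), beside 42.9% of all tested genes. The 2 lower were ORM1 and ORM2, beside 14.3% of all tested genes. The median log2 fold change of the 6 was -0.29, beside 0.23 for all tested genes. SOCS3, SAA1 and LBP stayed near 0 TPM in all or some libraries and were not tested.

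**Figure D1:**
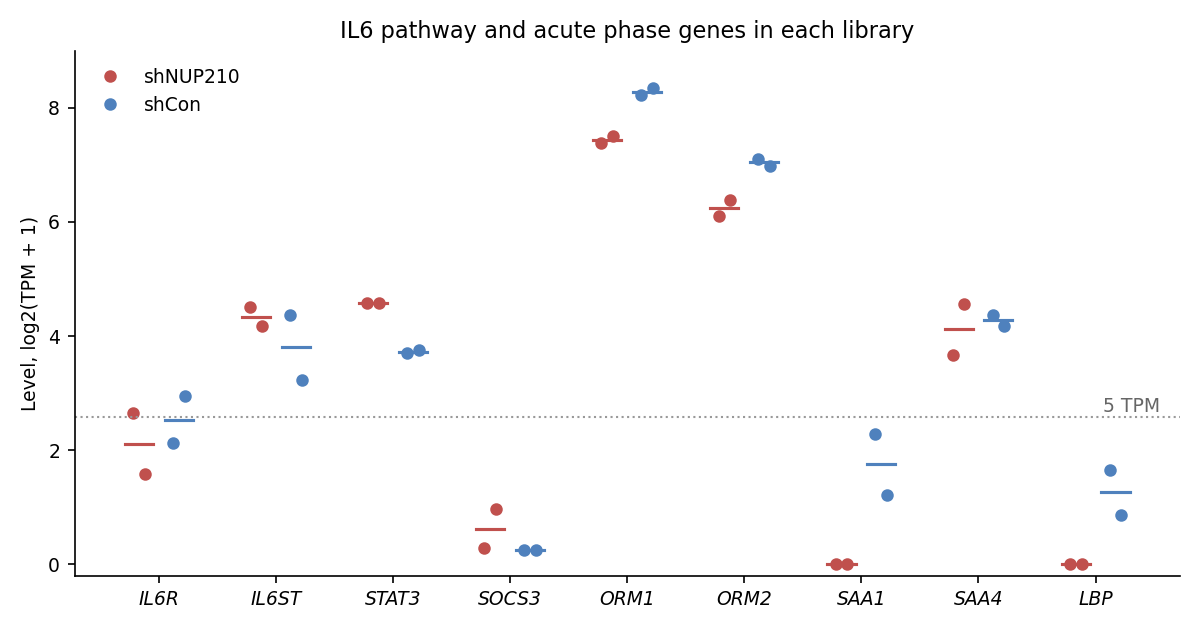
Level of the 9 listed genes in each library, as log2(TPM + 1), with shNUP210 libraries in red, shCon libraries in blue, short lines at group means and a dotted line at 5 TPM. ORM1 and ORM2 lie lower and STAT3 lies higher in both shNUP210 libraries, while SOCS3, SAA1 and LBP lie below the dotted line throughout.

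The receptor chains were expressed at modest levels that did not separate the groups. IL6R (chromosome 1, 154405193 to 154469450, plus strand) encodes the ligand-binding chain and was at 5.27 and 1.99 TPM in shNUP210 cells, against 3.36 and 6.72 TPM in shCon cells. The groups overlapped, with the lowest and the second highest values both in shNUP210 cells. The log2 fold change was -0.42 (95% interval -1.87 to 1.03, limma adjusted p = 0.686), and it was 0.11 without shNUP210 replicate 2. IL6ST (chromosome 5, 55935095 to 55994993, minus strand), the gp130 chain shared by the IL6 cytokine family, was at 21.76 and 17.06 TPM in shNUP210 cells, against 19.73 and 8.35 TPM in shCon cells. One shCon library was low and the other lay between the shNUP210 libraries. The log2 fold change was 0.54 (95% interval -0.51 to 1.59, limma adjusted p = 0.467), and it was -0.03 without shCon replicate 2. IL6ST shares 797 exon bases with the antisense gene AC008914.1 on the other strand, which was listed at 268.87 and 202.68 TPM in shNUP210 cells, against 144.61 and 123.80 TPM in shCon cells. No source used here states strand-specific counting, so reads of the pair within the shared bases cannot be told apart. The intervals of both receptor chains span 0 and are wide, so neither an increase nor a decrease was resolved at this precision.

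STAT3 (chromosome 17, 42313324 to 42388568, minus strand), the transcription factor activated by gp130, was at 22.96 and 22.85 TPM in shNUP210 cells, against 11.98 and 12.53 TPM in shCon cells. Both shNUP210 libraries lay above both shCon libraries, and the libraries of a group were close to each other. The mean was 22.91 ± 0.0778 TPM in shNUP210 cells and 12.25 ± 0.389 TPM in shCon cells (SD, n = 2 each). The log2 fold change was 0.85 (SE 0.23, 95% interval 0.29 to 1.42), and it did not pass over all genes (limma unadjusted p = 0.0106, adjusted p = 0.107). That SE and interval draw in part on the spread of other genes of like level, and not on the STAT3 values alone. The difference lay above the all-gene median of 0.23 and was 0.62 after trimmed-mean scaling. Its adjusted p was between 0.105 and 0.301 in the alternatives run, so no setting brought it past the threshold.

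SOCS3 (chromosome 17, 78356778 to 78360077, minus strand), the feedback inhibitor that STAT3 induces, was at 0.22 and 0.95 TPM in shNUP210 cells, against 0.19 and 0.19 TPM in shCon cells. At the approximate worth of a fragment these values are 0.6 and 2.2 fragments in shNUP210 cells, against 0.6 and 0.5 in shCon cells, so no difference was detectable at this depth. The gene was thus close to the limit of detection in all 4 libraries while its inducer STAT3 was measured at 11.98 TPM or more.

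ORM1 was the most abundant of the 9 genes, at 166.28 and 179.87 TPM in shNUP210 cells, against 297.59 and 324.62 TPM in shCon cells. The groups were well apart, with the higher shNUP210 library far below the lower shCon library. ORM1 fell to 173.1 ± 9.61 TPM in shNUP210 cells, against 311.1 ± 19.1 TPM in shCon cells (SD, n = 2 each), or 0.556 of the shCon mean. The log2 fold change was -0.84 (SE 0.11, 95% interval -1.11 to -0.57, limma adjusted p = 0.0296). Without shNUP210 replicate 1 or 2 the adjusted p was 0.15 and 0.115, and without shCon replicate 1 or 2 it was 0.126 and 0.156, so the call needs all 4 libraries. It also ended with a filter of 1 TPM (0.0578), with no filter (0.119), without the mean-variance trend (0.135) and with a replicate block (0.0566).

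ORM2 was at 67.96 and 82.73 TPM in shNUP210 cells, against 136.32 and 125.72 TPM in shCon cells. Both shNUP210 libraries again lay below both shCon libraries. The mean was 75.3 ± 10.4 TPM in shNUP210 cells and 131.0 ± 7.5 TPM in shCon cells (SD, n = 2 each), a ratio of 0.575. The log2 fold change of -0.80 (SE 0.15, 95% interval -1.17 to -0.42) missed the threshold in TPM as deposited (limma adjusted p = 0.0595). It passed as lower after 3 rescalings, with a limma adjusted p of 0.0336 by median ratios, 0.0391 by upper quartiles and 0.0334 by trimmed means. After trimmed-mean scaling ORM1 and ORM2 were thus the 2 of 6 members that passed, against 3.23% of all tested genes (0.769% higher and 2.47% lower).

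Because reads can be shared between ORM1 and ORM2, their sum was also tested, a choice made after seeing the data. The sum was 234.2 and 262.6 TPM in shNUP210 cells, against 433.9 and 450.3 TPM in shCon cells (log2 fold change -0.83, SE 0.10, limma adjusted p = 0.0266). ORM1 made up 71.0 and 68.5% of the sum in shNUP210 cells, against 68.6 and 72.1% in shCon cells. These shares overlapped, so the proportion of the pair assigned to ORM1 did not separate the groups.

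**Figure D2:**
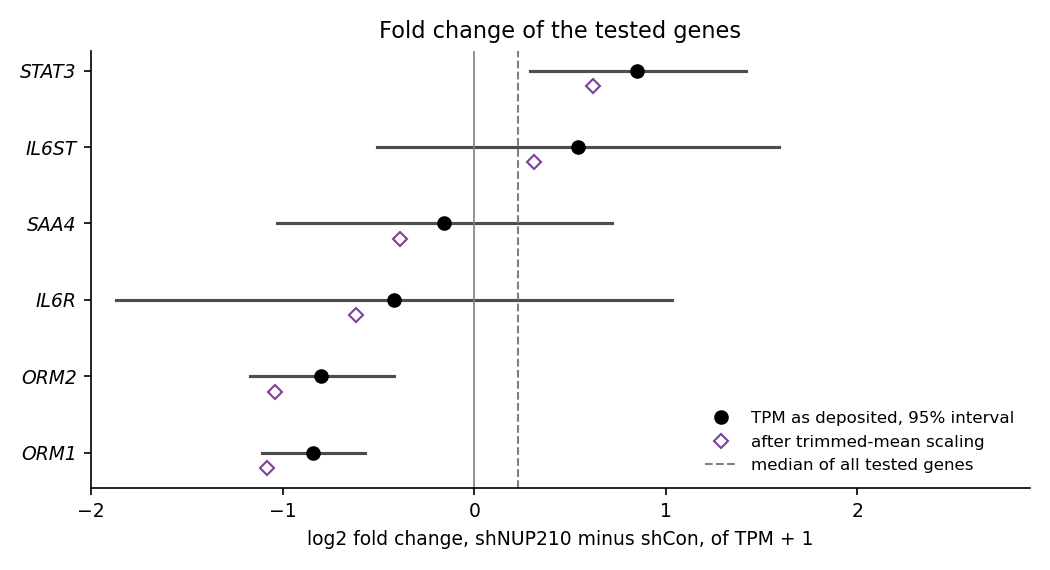
Log2 fold change (shNUP210 minus shCon, of TPM + 1) of the 6 tested genes: black points with 95% intervals in TPM as deposited, open diamonds after trimmed-mean scaling, dashed line at the median of all tested genes. The intervals of ORM1, ORM2 and STAT3 leave out 0, and those of IL6R, IL6ST and SAA4 span it.

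The serum amyloid A genes lie together on chromosome 11, with SAA1 at 18266174 to 18269977 on the plus strand and SAA4 at 18231349 to 18236893 on the minus strand. SAA4, which is made in liver without induction and circulates on high-density lipoprotein, was at 11.69 and 22.67 TPM in shNUP210 cells, against 19.69 and 17.07 TPM in shCon cells. The shNUP210 libraries lay on either side of the shCon pair. The log2 fold change was -0.16 (95% interval -1.03 to 0.72, limma adjusted p = 0.813), and it was 0.29 without shNUP210 replicate 1. SAA1, the strongly inducible form, was listed at 0 in both shNUP210 libraries and at 3.89 and 1.33 TPM in the shCon libraries, about 4.6 and 1.5 fragments. Its coding sequence was 97.0% identical to that of SAA2, which was at 0 and 1.94 TPM in shNUP210 cells, against 0 and 3.40 TPM in shCon cells. The sum of SAA1 and SAA2 was 0 and 1.94 TPM in shNUP210 cells, against 3.89 and 4.73 TPM in shCon cells. SAA1 and SAA4 shared 69.0% of aligned coding positions and no window of 50 bases, so their coding sequences are little exposed to this sharing of reads. SAA2 was not compared with SAA4.

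LBP (chromosome 20, 38346356 to 38377023, plus strand) was listed at 0 in both shNUP210 libraries and at 2.15 and 0.82 TPM in the shCon libraries. The shCon values are about 7.9 and 3.0 fragments. Both LBP and SAA1 were thus listed at 0 after knockdown and low in control cells, and no fold change is given for either. In order of TPM the genes were ORM1, ORM2 and then a group of STAT3, IL6ST and SAA4 whose ranges overlapped, with IL6R below. SAA1 and LBP overlapped IL6R in part, and SOCS3 was below 1 TPM in every library.

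Of the wider IL6 pathway, no tested gene outside the STAT3-induced list and the acute phase lists passed. IL6, OSM, CNTF and CNTFR were not analysed here. Of the IL6-family cytokines 2 of 7 listed genes reached the filter, and neither passed by limma at either an adjusted or an unadjusted p under 0.05. CLCF1, a secreted cytokine of this family, was at 8.62 ± 0.841 TPM in shNUP210 cells and 4.36 ± 0.792 TPM in shCon cells (SD, n = 2 each, limma adjusted p = 0.228). Of 5 tested IL6-family receptors, 0 passed by limma, and 1, the IL27 receptor gene IL27RA, had an unadjusted p under 0.05. A p under 0.05 before adjustment was common, being found for 2469 of all 10140 tested genes. IL27RA was at 3.35 and 3.17 TPM in shNUP210 cells, against 8.52 and 6.53 TPM in shCon cells (log2 fold change -0.99, adjusted p = 0.204). LIFR, the receptor chain for leukaemia inhibitory factor, had overlapping groups (adjusted p = 0.418) and shares exon bases with LIFR-AS1. Of 3 tested genes for shedding of the IL6 receptor, the protease ADAM10 and 2 regulators, 0 passed by limma. ADAM10 alone had an unadjusted p under 0.05 (54.7 ± 6.87 TPM in shNUP210 cells and 30.8 ± 10.2 TPM in shCon cells, SD, n = 2 each, adjusted p = 0.143), and its exons overlap those of AC018904.1. ADAM17, the other protease of this list, was at 5.28 and 4.61 TPM in shNUP210 cells, against 3.25 and 2.28 TPM in shCon cells. It missed the filter and was not tested, and its exons overlap those of AC073195.1 and IAH1. The regulators RHBDF1 and RHBDF2 had log2 fold changes of 0.43 and -0.16 (adjusted p 0.373 and 0.9).

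JAK kinases and STATs as a list lay toward higher values with no call. Of 8 tested, 0 passed by limma, and 5 had an unadjusted p under 0.05 (JAK1, TYK2, STAT2 and STAT3 among them), each higher in shNUP210 cells. Across all tested genes, 2469 of 10140 had such a p, 1866 higher and 603 lower. In 6 of the 8 the groups did not overlap and shNUP210 was higher, beside 42.9% of all tested genes. The list's median log2 fold change was 0.60 beside 0.23 for all tested genes, and 0.36 after trimmed-mean scaling. Less abundant genes had higher folds, with a median of 0.32 among the 5007 tested genes with a mean below 20 TPM. The part of this trend in the list was not tested. TYK2, a JAK kinase, was at 123.6 ± 10.2 TPM in shNUP210 cells and 88.7 ± 16.8 TPM in shCon cells (SD, n = 2 each, limma adjusted p = 0.17). STAT6, which mediates IL4 signals, had a log2 fold change of 0.16 that turned to -0.08 after trimmed-mean scaling (adjusted p = 0.69 in deposited TPM).

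Negative regulators of JAK-STAT signalling had 0 of 10 tested genes passing by limma, with 1, SOCS1, at an unadjusted p under 0.05. That p was reached by 2469 of all 10140 tested genes. SOCS1, an inhibitor of JAK kinases, was at 23.60 and 12.20 TPM in shNUP210 cells, against 30.41 and 32.34 TPM in shCon cells (log2 fold change -0.84, limma adjusted p = 0.199). The replicates of shNUP210 differed by nearly as much as the groups did. PIAS4 and PTPN2, which act on STATs in the nucleus, had log2 fold changes of 0.24 and 0.37 (adjusted p 0.394 and 0.508). The list's median was 0.23, beside 0.23 for all tested genes. Of 13 tested genes known to be induced by STAT3, CCND1 alone passed, beside 2.86% of all tested genes (1.79% higher). CCND1, encoding cyclin D1, rose to 442.0 ± 72.8 TPM in shNUP210 cells, against 206.7 ± 9.06 TPM in shCon cells (SD, n = 2 each, log2 fold change 1.08, limma adjusted p = 0.0295), and its exons overlap those of LTO1. BCL2L1, an apoptosis inhibitor gene, had a log2 fold change of 0.24 (adjusted p = 0.325), which was -0.01 after trimmed-mean scaling. MYC had a log2 fold change of -0.59 (adjusted p = 0.0964) and passed as lower after trimmed-mean scaling (0.0467). The list's median log2 fold change was 0.28, beside 0.23 for all tested genes, and 0.05 after trimmed-mean scaling.

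Positive and negative acute phase genes both had more members lower than higher after knockdown. Calls over all 11 lists depended on settings. Of 96 tested list genes 13 passed, beside 290 of all 10140 tested genes (2.86%). With no filter 1 of 133 list genes passed, beside 14 of all 20226. Without the mean-variance trend 0 of the 96 passed by limma, and 32 had an unadjusted p under 0.05, beside 0 and 2290 of all 10140. Of 21 tested positive acute phase genes 3 fell (ORM1, AGT and SERPINA1) and 1 rose (MT2A), beside 1.07% lower and 1.79% higher among all tested genes. The 21 include SAA4, described above as made in liver without induction. In 11 of the 21 the groups did not overlap with shNUP210 lower, against 14.3% of all tested genes. The median log2 fold change was -0.35, and -0.57 after trimmed-mean scaling. AGT, the angiotensin precursor, fell to 306.3 ± 18.8 TPM in shNUP210 cells, against 536.0 ± 29.9 TPM in shCon cells (SD, n = 2 each, limma adjusted p = 0.0263). SERPINA1, the protease inhibitor alpha-1-antitrypsin, fell to 1610 ± 10.7 TPM in shNUP210 cells, against 2676 ± 57.7 TPM in shCon cells (SD, n = 2 each, limma adjusted p = 0.00977). MT2A, an intracellular metal-binding metallothionein and not a plasma protein, was at 1560.23 and 1623.59 TPM in shNUP210 cells, against 799.65 and 718.45 TPM in shCon cells (limma adjusted p = 0.00977). The fibrinogen chain genes FGA and FGB had log2 fold changes of 0.02 and -0.01 (adjusted p 0.934 and 0.948), and FGA had -0.22 after trimmed-mean scaling. FGA was at 315.4 ± 2.21 TPM in shNUP210 cells and 312.1 ± 30.1 TPM in shCon cells (SD, n = 2 each). HPX, the haem carrier hemopexin, had a log2 fold change of -0.62 (adjusted p = 0.118), which was -0.87 without shNUP210 replicate 1 and -0.37 without shNUP210 replicate 2.

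Of 10 tested negative acute phase genes 6 fell (SERPINA6, APOA1, RBP4, AHSG, TF and APOA2) and 0 rose, beside 1.07% lower and 1.79% higher among all tested genes. TTR was higher at an unadjusted limma p under 0.05, as were 1866 of all 10140 tested genes. The median log2 fold change was -0.72, and -0.97 after trimmed-mean scaling. APOA1, encoding apolipoprotein A-I of high-density lipoprotein particles, fell to 2059 ± 7.25 TPM in shNUP210 cells, against 5099 ± 92 TPM in shCon cells (SD, n = 2 each, limma adjusted p = 0.00253). SERPINA6, encoding the plasma carrier of cortisol, fell to 43.1 ± 6.05 TPM in shNUP210 cells, against 108.6 ± 11.8 TPM in shCon cells (SD, n = 2 each, limma adjusted p = 0.0299). AHSG, encoding fetuin A, fell to 433.6 ± 7.38 TPM in shNUP210 cells, against 791.4 ± 1.72 TPM in shCon cells (limma adjusted p = 0.0118). A log2 fold change of -0.96 was measured for RBP4, whose product carries vitamin A in plasma. TF, the iron carrier transferrin, had -0.78 (its exons overlap those of SRPRB), and APOA2 had -0.67 (limma adjusted p 0.00987 for RBP4, 0.0133 for TF and 0.00977 for APOA2). ALB had a log2 fold change of 0.01 (adjusted p = 0.949), which was -0.23 after trimmed-mean scaling. TTR had 0.56 (adjusted p = 0.0501) and SERPINA5 had 0.15 (adjusted p = 0.608), which was -0.09 after trimmed-mean scaling. Abundant genes as a whole had lower folds, with a median log2 fold change of -0.07 among the 277 most abundant tested genes and 0.32 among the 5007 least abundant, and the part of this trend in both lists was not tested. The hepatocyte markers given above share APOA1, APOA2, TTR, TF and ALB with this list.

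**Figure D3:**
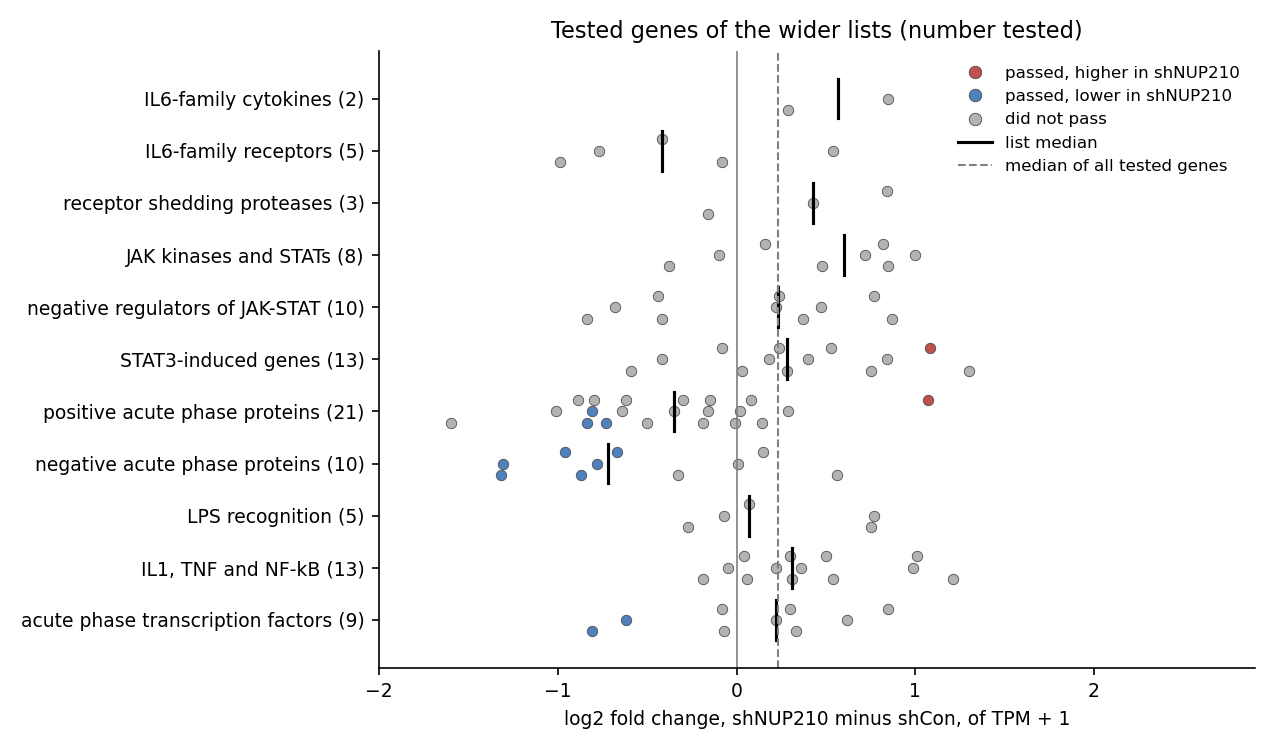
Log2 fold change (shNUP210 minus shCon, of TPM + 1) of each tested gene in the 11 lists, with genes that passed in red (higher) or blue (lower), black bars at list medians and a dashed line at the median of all tested genes. The blue points fall in the acute phase and transcription factor lists, while the JAK and STAT list is grey and lies mostly right of the dashed line.

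Of 9 tested transcription factors of acute phase genes, CEBPA and CEBPB fell and 0 rose by limma, beside 1.07% lower and 1.79% higher among all tested genes. At an unadjusted p under 0.05, 1 was higher and 2 were lower, beside 1866 higher and 603 lower of all 10140 tested genes. CEBPB, which mediates IL6 induction, was at 96.06 and 100.12 TPM in shNUP210 cells, against 184.47 and 162.67 TPM in shCon cells (log2 fold change -0.81, limma adjusted p = 0.0421). CEBPA, whose exons overlap 2 noncoding genes, had a log2 fold change of -0.62 (adjusted p = 0.0334). CEBPD, the C/EBP factor most strongly induced in the acute phase, was at 93.1 ± 3.08 TPM in shNUP210 cells and 98.8 ± 3.78 TPM in shCon cells (SD, n = 2 each, adjusted p = 0.71). HNF4A, a hepatocyte nuclear receptor, had a log2 fold change of 0.30 (adjusted p = 0.24). Any relation between these factors and ORM1 was not tested.

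Markers of blood-derived cells were also read, since macrophages express CD14 and respond to LBP. Of the 8 leukocyte and macrophage markers 6 were listed. Their summed level was 49.2 and 25.8 TPM in shNUP210 cells, against 165.9 and 152.2 TPM in shCon cells, and most of it was LYZ, the lysozyme gene, the 1 marker that passed (lower), whose exons overlap those of AC020656.1. CD68, a macrophage marker, was at 13.85 and 2.48 TPM in shNUP210 cells, against 30.66 and 17.85 TPM in shCon cells (limma unadjusted p = 0.049, adjusted p = 0.204). PTPRC and CD163 were not analysed here. ITGAM, CSF1R and MARCO were near 0, with group means of 0.515 TPM or less. The endothelial list had 1 listed gene, STAB2, listed at 0 in both shNUP210 libraries and at 0 and 4.15 TPM in the shCon libraries. Listed stellate cell and fibroblast markers summed to 40.5 and 20.1 TPM in shNUP210 cells, against 13.3 and 15.7 TPM in shCon cells, with 0 of 2 tested genes passing by limma and 1, COL1A1, at an unadjusted p under 0.05. That p was reached by 2469 of all 10140 tested genes. Listed cholangiocyte markers summed to 274.8 and 242.6 TPM in shNUP210 cells, against 164.4 and 143 TPM in shCon cells, with KRT19 passing as higher. KRT19 alone was at 187.4 ± 7 TPM in shNUP210 cells and 66.6 ± 12 TPM in shCon cells (SD, n = 2 each). EPCAM was at 19.22 and 16.90 TPM in shNUP210 cells, against 32.86 and 32.49 TPM in shCon cells (log2 fold change -0.82, limma adjusted p = 0.0917), and SOX9 had a log2 fold change of -0.09. The part of these markers in the results was not tested.

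**Figure D4:**
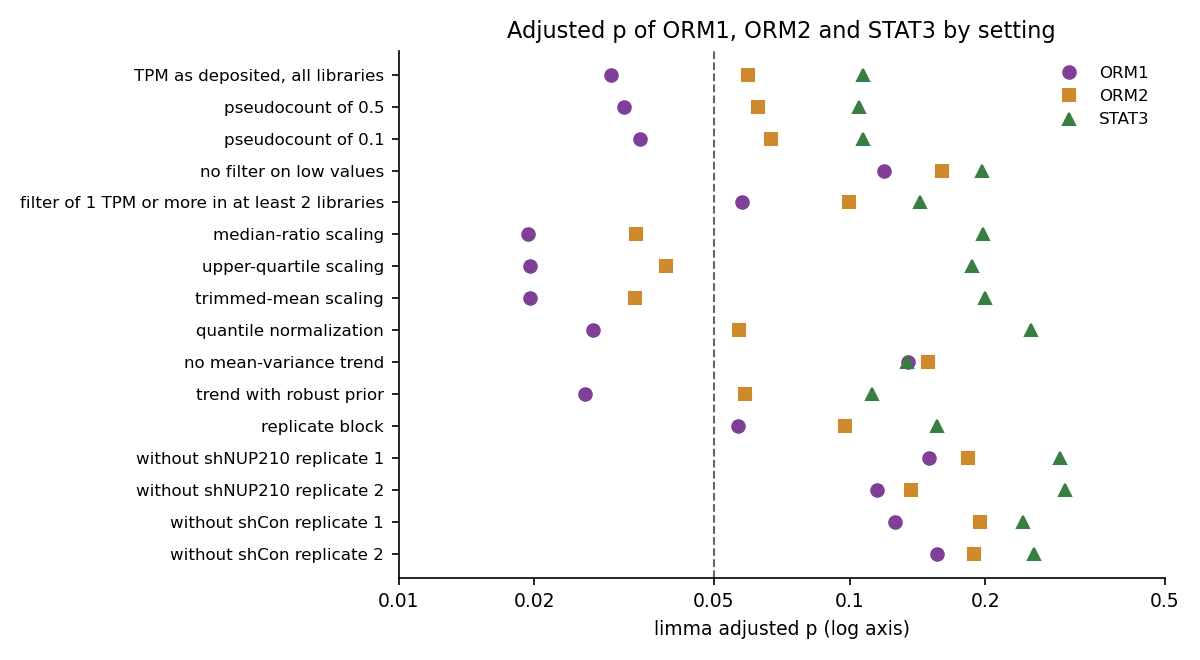
Limma adjusted p (log axis) of ORM1, ORM2 and STAT3 under each setting, with a dashed line at 0.05. ORM1 lies left of the line in 8 settings, ORM2 in 3 of the rescalings, and STAT3 in none of the 16.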

How the data were processed

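RNA sequencing of 4 Huh7 libraries was read from tables in which the authors deposited TPM per gene. The unit was taken from the totals of the columns, which were nearly equal. Tools named in the submitters' processing notes are RSEM, STAR, Trimmomatic and DESeq, and the build is hg38; their versions and roles, the annotation and the strand setting are not given in the sources used here. Libraries were grouped by title. Genes at 5 TPM or more in at least 2 libraries were tested with limma 3.58.1 in R 4.3.3, using log2(TPM + 1), a variance trend on mean level and a two-sided test, with Benjamini-Hochberg adjustment over 10140 genes. A permutation test of 2 against 2 libraries cannot go below p = 0.33 and was not used. The code was tested on simulated data. Alternatives covered pseudocounts, filters, scalings, the variance trend, a replicate block and leaving out each library. Positions and exon overlaps of 100 bases or more came from GENCODE release 29. Fragment numbers use the mean length of listed transcripts and are estimates without counting intervals. The members, the lists and the filter were chosen with earlier results of these data known. The text names each member, NUP210, up to 6 called genes of each list and its 3 most abundant uncalled genes, some of which are not reported here. JAK1, STAT2, ADAM17, IL1RAP, TNFAIP3, IKBKB and the named markers fall outside that rule and were chosen after their values were seen.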

Additional observations from a re-analysis of the deposited data

How the results depend on the processing

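With 2 libraries per group, precision is limited by replicate number and by unknown depth. The call of ORM1 held under 7 of 15 alternatives (both other pseudocounts, the robust prior and 4 scalings), and its log2 fold change was -1.08 to -0.78 in all 15. Passing genes numbered 290 over all genes, 1 among the tested members and 13 in the wider lists. Those counts were 14, 0 and 1 with no filter, 57, 0 and 7 with a filter of 1 TPM, and 0, 0 and 0 without the mean-variance trend, where limma gave 2290 genes, 3 members and 32 list genes an unadjusted p under 0.05. With the replicate block they were 63, 0 and 8. With no filter 5 of 9 members had an unadjusted limma p under 0.05, beside 2972 of 20226 genes. Those 9 include SOCS3, SAA1 and LBP, which lay near 0 TPM in all or some libraries. The 1 TPM filter gave 4 of 7 members, beside 2952 of 14576 genes. The block gave 3 of 6 members, beside 2339 of 10140 genes. Members passing were 2 with scaling by median ratios, by upper quartiles and by trimmed means. Leaving out 1 library gave 4 to 27 genes, 0 to 0 members and 1 to 2 list genes, and a group left with 1 library was assumed to vary like the other. Same-numbered libraries had a correlation of 0.0231 in their deviations and the labels give no shared batch, so the numbers were not taken as pairs. Over the named genes and alternatives, 579 values kept direction and call, 92 of 14 genes lost the call, 6 of 3 genes gained it and 44 of 15 genes turned direction. The cause was not tested.

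The log2 fold changes that turned direction are given by setting. By median ratios they were -0.23 for ALB, -0.0025 for BCL2L1, -0.22 for FGA, -0.17 for NFKBIB, -0.02 for RELA, -0.09 for SERPINA5, -0.07 for STAT6 and -0.14 for TICAM1. By upper quartiles they were -0.20 for ALB, -0.19 for FGA, -0.14 for NFKBIB, -0.06 for SERPINA5, -0.04 for STAT6 and -0.11 for TICAM1. By trimmed means they were -0.23 for ALB, -0.01 for BCL2L1, -0.22 for FGA, -0.18 for NFKBIB, -0.02 for RELA, -0.09 for SERPINA5, -0.08 for STAT6 and -0.14 for TICAM1. By quantile normalization they were -0.03 for FGA, -0.13 for NFKBIB, -0.00012 for SERPINA5, -0.13 for STAT6 and -0.24 for TICAM1. Leaving out 1 library at a time gave -0.08 to 0.10 for ALB, -0.08 to 0.12 for FGA, -0.08 to 0.06 for FGB, -0.96 to 0.11 for IL6R, -0.03 to 1.12 for IL6ST, -0.28 to 0.15 for IRAK1, -0.10 to 0.23 for NFKBIB, -0.04 to 0.77 for PTPN2, -0.90 to 0.58 for RHBDF2, -0.61 to 0.29 for SAA4, -0.03 to 0.33 for SERPINA5 and -0.08 to 0.21 for TICAM1.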

Other observations

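The genes around LBP and the IL1 and TNF pathway were listed for comparison. LBP delivers lipopolysaccharide to CD14. Its recognition also involves TLR4 and LY96, which were not analysed here. Of 5 tested genes of lipopolysaccharide recognition, 0 passed by limma and 1, MYD88, had an unadjusted p under 0.05. That p was reached by 2469 of all 10140 tested genes. MYD88, the adaptor of most Toll-like receptors, was at 30.35 and 30.94 TPM in shNUP210 cells, against 16.58 and 18.49 TPM in shCon cells (log2 fold change 0.77, limma adjusted p = 0.105). IRAK1, the kinase downstream of MYD88, and TICAM1, another adaptor, had log2 fold changes of -0.07 and 0.07 (adjusted p 0.855 and 0.928), and TICAM1 had -0.14 after trimmed-mean scaling. CD14 itself had group means of 5.62 TPM in shNUP210 cells and 7.07 TPM in shCon cells (adjusted p = 0.775).

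IL1 acts with IL6 on several acute phase genes through NF-kB. Of 13 tested genes of the IL1, TNF and NF-kB list, 0 passed by limma and 4 had an unadjusted p under 0.05, each higher in shNUP210 cells: IL1RAP, NFKBIA, TNFAIP3 and IKBKB. Among all 10140 tested genes, 1866 were higher at such a p. NFKBIA, the NF-kB inhibitor that NF-kB itself induces, was at 97.17 and 108.94 TPM in shNUP210 cells, against 64.80 and 80.78 TPM in shCon cells (log2 fold change 0.50, limma adjusted p = 0.151). RELA, encoding the p65 subunit, and NFKBIB had overlapping groups (adjusted p 0.575 and 0.864), with log2 fold changes of 0.22 and 0.06 in deposited TPM and -0.02 and -0.18 after trimmed-mean scaling. The list's median log2 fold change was 0.31, beside 0.23 for all tested genes, and 0.09 after trimmed-mean scaling.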
